A study of Mus musculus with 4 samples.

Results

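The genes described here serve protein folding in the endoplasmic reticulum, the removal of misfolded proteins from it (endoplasmic reticulum-associated degradation, ERAD) and the unfolded protein response. The list holds 34 genes chosen by function, and 33 of them were found by symbol among the 27189 genes of the deposited files. The 33 genes comprised 5 sensors and transcription factors, 15 folding factors, 10 degradation factors and 3 stress outputs. The remaining gene, Ppp1r15a, was found under its older symbol Myd116 and is described beside the others without being counted among them.

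RNA-seq was performed on motor neuron cell bodies laser-captured from the ventral horn of the spinal cord of mice carrying human SOD1 fused to yellow fluorescent protein (YFP). Wild-type SOD1-YFP mice (strain 592) and G85R SOD1-YFP mice (strain 737), which carry a mutation found in inherited amyotrophic lateral sclerosis, were both taken at 3 months of age, before paralysis is usual in the mutant strain. Each genotype had 2 libraries, each from 1 mouse and from 3000 to 4000 cell bodies, and both strains were kept on a C57BL/6J x SJL/J background. The comparison asks whether the mRNAs that serve the secretory pathway differed between motor neurons with mutant and with wild-type fusion protein.

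Both strains express the fusion from a fragment of the human SOD1 gene, so that mice without a transgene form no part of the comparison. Each genotype is 1 transgenic line, and the mutation, the insertion site and the copy number of the transgene cannot be told apart. According to the study's methods, cell bodies of G85R mice with large, bright YFP aggregates were not captured, so that the RNA is from the other motor neurons.

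The unfolded protein response starts from sensors in the membrane of the endoplasmic reticulum. Ern1 (IRE1 alpha) splices the mRNA of the transcription factor Xbp1, Eif2ak3 (PERK) phosphorylates eIF2 alpha and so favors the translation of Atf4, and Atf6 is cut in the Golgi to release a transcription factor. Their targets are chaperones such as Hspa5 (BiP), the ERAD machinery and, under lasting stress, genes such as Ddit3 (CHOP). Motor neurons are large secretory cells, and stress of the endoplasmic reticulum is a recurrent topic in work on mutant SOD1.

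The promoters of some of these genes carry an element through which Atf6 and Xbp1 act, and its sequences are shown to describe those promoters. The endoplasmic reticulum stress response element (ERSE) was searched on both strands as CCAAT, 9 free bases and CCACG in RefSeq promoters (GRCm38.p6), from 250 bases before to 50 bases after each gene start, and a gene with several starts was counted once. A promoter was found for 30 of the 34 listed genes (not for Atf6, Derl1, Erp29 and Hyou1). It held an ERSE in 9 of the 30 genes (30%), against 37 of all 27025 genes with a promoter (0.137%). The genes were listed for their known part in this response, so these shares describe the list and test nothing. The 10 sites began 44 to 212 bases before the gene start, and Hsp90b1 had 2 of them. The sequences are given 5′ to 3′ along the strand of the motif, with the fixed bases in capitals.
Hspa5 (chr2:34772025-34772043, + strand): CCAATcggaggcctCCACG
Hsp90b1, first site (chr10:86705638-86705656, − strand): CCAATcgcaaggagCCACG
Hsp90b1, second site (chr10:86705533-86705551, + strand): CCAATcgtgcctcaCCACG
Calr (chr8:84847075-84847093, + strand): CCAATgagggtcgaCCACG
Canx (chr11:50325800-50325818, − strand): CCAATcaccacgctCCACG
Pdia6 (chr12:17266491-17266509, + strand): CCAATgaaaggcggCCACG
Creld2 (chr15:88819520-88819538, − strand): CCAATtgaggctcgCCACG
Ero1lb (chr13:12565682-12565700, − strand): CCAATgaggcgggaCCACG
Syvn1 (chr19:6046532-6046550, + strand): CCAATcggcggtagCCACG
Derl3 (chr10:75893242-75893260, − strand): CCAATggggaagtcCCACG

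Related elements were rarer among the members. The second form of the element (ERSE-II: ATTGG, 1 free base and CCACG) was found in Herpud1 alone among the members, against 12 of all genes (0.0444%).
Herpud1, ERSE-II (chr8:94386377-94386387, + strand): ATTGGgCCACG
The unfolded protein response element TGACGTGG was found in Txndc5 among the members and in 0.714% of all genes. The C/EBP-ATF element, read as TGATGNAA, was found in Chac1, Herpud1, Trib3 and Txndc5, which is 13.3% of the 30 members, against 4.51% of all genes. ERSE-II joins CCACG to the reverse complement of CCAAT, and the unfolded protein response element read on its other strand begins with CCACG, so the patterns share parts. A match is a description of the letters alone, and occupancy of these sites was not measured here.

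Expression was given as RPKM, the reads of a gene scaled to the length of its transcripts and to the mapped reads of the library, which can be compared between genes because it is per length. The 4 libraries had an estimated 21560318 to 25186594 reads on genes, and 1 read was worth a median of 0.0195 to 0.0226 RPKM. Genotypes were compared with limma on log2(RPKM + 0.1), and the 11530 genes that averaged 1 RPKM or more were tested. A positive log2 fold change is a higher value in G85R, and calls are those with a p under 0.05 after Benjamini-Hochberg adjustment over all tested genes. With 2 libraries against 2, the smallest p of an exact two-sided permutation test is 0.333. All 8 motor neuron markers were above 1 RPKM on average, with Chat at 66.3 and 81.2 RPKM in wild-type and 49.6 and 65.5 RPKM in G85R. Their log2 fold changes were negative, from -0.46 for Isl2 to -0.08 for Ache, except for Slc5a7 (0.04). None of these markers was called, and Prph alone had an unadjusted limma p under 0.05 (0.0449). Mouse Sod1 was at 96.3 and 146 RPKM in wild-type and at 124 and 150.1 RPKM in G85R (log2 fold change 0.20, limma adjusted p = 0.806), and whether reads of the human transgene map to it was not tested. The 6 astrocyte markers summed to 33.8 and 37.1 RPKM in wild-type and to 124 and 49.0 RPKM in G85R. Gfap made up most of that gap, at 11.5 and 17.1 RPKM in wild-type and 91.9 and 28.4 RPKM in G85R, and the other 5 markers summed to 22.3 and 20.0 RPKM in wild-type and 31.7 and 20.6 RPKM in G85R.

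Of the 33 members, 31 passed the filter on low values, and Ern1 and Trib3 did not. Derl3 lay just inside it at a mean of 1.03 RPKM, and Ern1 just outside at 0.650 RPKM. The genes were well expressed, with a median of 31.7 RPKM against 10.1 RPKM for all tested genes. Levels spanned Calr at a mean of 215 RPKM down to Trib3 at 0.482 RPKM.

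**Figure D1:**
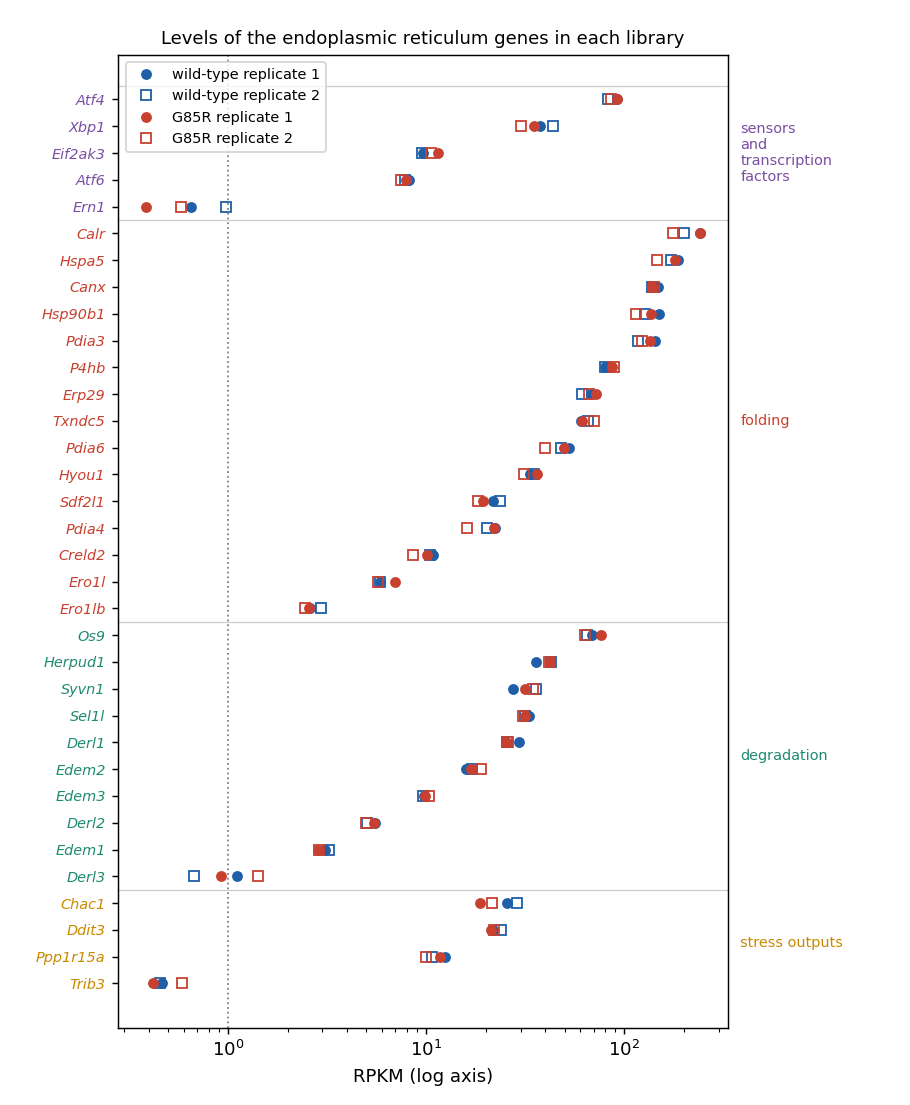
RPKM (log axis) of each gene in each of the 4 libraries, grouped by role and with Ppp1r15a among the stress outputs, with wild-type in blue and G85R in red, replicate 1 as filled circles, replicate 2 as open squares, and the filter of 1 RPKM as a dotted line. For most genes the 4 points lie close together, while the levels run from under 1 RPKM for Ern1 and Trib3 to above 100 RPKM for Calr, Hspa5, Canx, Hsp90b1 and Pdia3.

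None of the 31 members was called by limma, where 74 of 11530 genes were (0.642%). At an unadjusted limma p under 0.05 there were 3 members, Chac1, Xbp1 and Sdf2l1, against 11.0% of all tested genes. All 3 were lower in G85R, a direction in which 6.37% of all tested genes passed that threshold. The log-linear likelihood ratio test named by the study was also run here. It took rounded RPKM with 1 read added per gene as if they were counts. It called 0 of 33 members, against 62 of all 27189 genes. At an unadjusted p under 0.05 in that test there were 0 members, against 352 of all 27189 genes. So few genes passed this test that 0 members says little about them. In bulk RNA, fewer cells of a type and less RNA per cell cannot be told apart.

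The members' differences were small. The log2 fold changes ran from -0.43 to 0.37, and their median was -0.04, against -0.02 over all tested genes. The median size of the log2 fold change, regardless of sign, was 0.102 against 0.124 over all tested genes. The mean was lower in G85R for 19 members and higher for 12, and 61.3% were thus lower, against 54.7% of all tested genes. With 1 library left out at a time, the number with a lower mean ran from 14 (without G85R replicate 2) to 22 (without G85R replicate 1), and the median log2 fold change from -0.07 to 0.01.

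The spread between the mice of a genotype was mostly as large as the difference between genotypes. In 25 of 31 members (80.6%) the larger difference between replicates, on the log2 scale, exceeded the log2 fold change between genotypes, against 70.9% of all tested genes. The libraries of the genotypes did not overlap in 10 members, 3 with both G85R values higher and 7 with both lower, which is 32.3% against 41.2% of all tested genes. The 95% interval of the log2 fold change lay within a 2-fold difference either way in 30 of 31 members (96.8%), against 92.7% of all tested genes. The exception was Derl3, a channel component of ERAD, with an interval from -0.41 to 1.15 at 27 to 52 estimated reads.

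**Figure D2:**
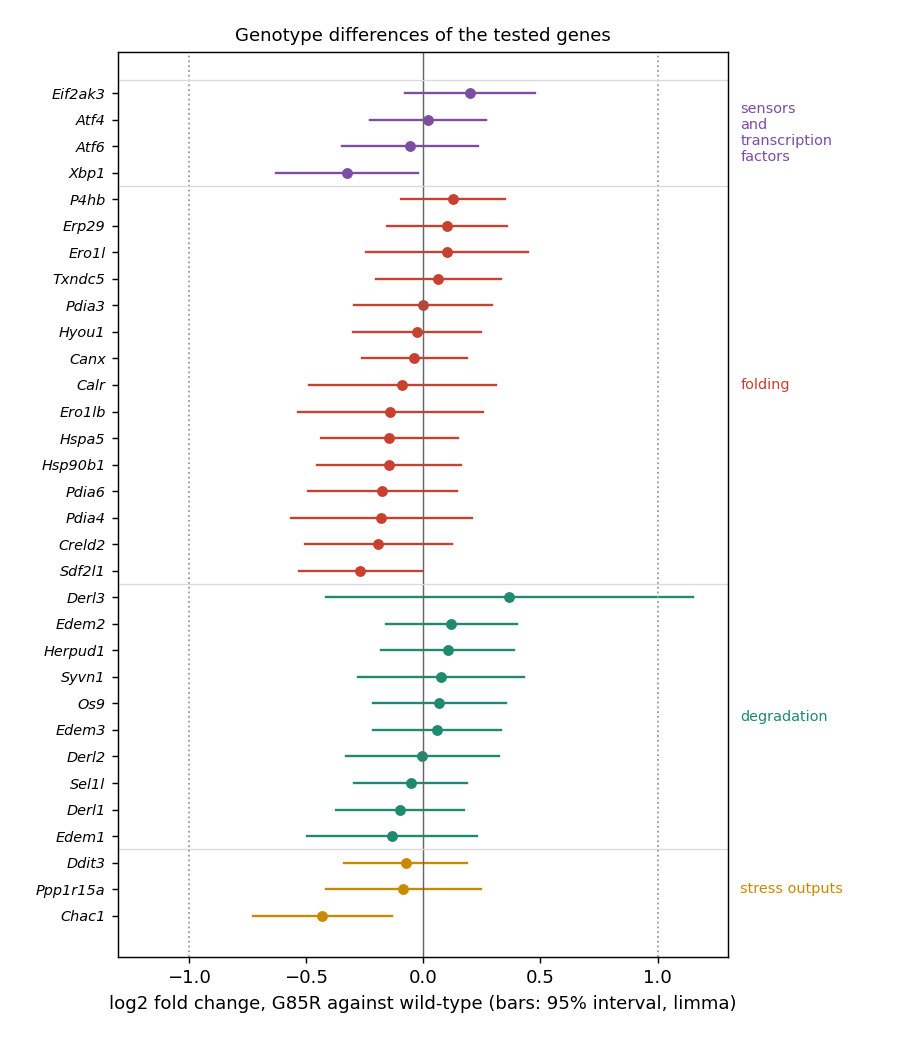
Log2 fold change (G85R minus wild-type) of the 31 tested members and Ppp1r15a with the 95% interval from limma, grouped by role, with a solid line at 0 and dotted lines at a 2-fold difference. The intervals of Chac1, Xbp1 and Sdf2l1 lie below 0 before adjustment, those of all other genes include 0, and the widest belongs to Derl3.

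The sensors were expressed at low to middle levels. Ern1, the kinase and RNase that splices Xbp1 mRNA, was at 0.650 and 0.984 RPKM in wild-type and 0.386 and 0.579 RPKM in G85R. Its 4 values rest on 28 to 84 estimated reads. Both G85R values were below both wild-type values, and the gene did not pass the filter. With a minimum of 0.1 RPKM its log2 fold change was -0.65 (limma adjusted p = 0.525).

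Eif2ak3, the kinase PERK, was at 9.69 and 9.50 RPKM in wild-type and 11.5 and 10.6 RPKM in G85R. Both mutant libraries were above both wild-type libraries, but the log2 fold change of 0.20 with a standard error of 0.117 did not pass the test (limma adjusted p = 0.608). Atf6, the membrane-bound factor, was at 8.24 and 7.82 RPKM in wild-type and 7.95 and 7.49 RPKM in G85R. Its genotypes overlapped, with a log2 fold change of -0.06 (SE 0.122, limma adjusted p = 0.933).

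Xbp1 encodes the transcription factor that Ern1 activates by splicing (NCBIM37 chr11:5420662-5425896, + strand). It was at 37.6 and 43.8 RPKM in wild-type, a mean of 40.7 ± 4.35 (SD, n = 2), and at 34.9 and 30.1 RPKM in G85R, a mean of 32.5 ± 3.40 (SD, n = 2). Both mutant libraries were below both wild-type libraries, and the values rest on 625 to 997 estimated reads. The log2 fold change was -0.32 with a 95% interval from -0.63 to -0.02, and it was not called by limma (unadjusted p = 0.0397, adjusted p = 0.423). The value counts 3 transcripts together, so spliced and unspliced Xbp1 mRNA are not separated.

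Atf4, the transcription factor translated when eIF2 alpha is phosphorylated, was the most abundant of the group at 92.3 and 83.0 RPKM in wild-type and 91.8 and 86.0 RPKM in G85R. The 4 values overlapped fully. Its log2 fold change was 0.02 (SE 0.105, limma adjusted p = 0.971), with a sign that turned to -0.03 without G85R replicate 1, to -0.06 without wild-type replicate 2 and to 0.00 or just below after quantile normalization. The protein level of Atf4 is set largely in translation and was not measured here. In all, 2 of the 4 tested genes of the group had higher and 2 lower means in G85R, and the group's median difference was -0.02 on the log2 scale. It was 0.04 without wild-type replicate 1, 0.03 without G85R replicate 2 and -0.07 without wild-type replicate 2.

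The folding factors were the most abundant group, with a median of 64.6 RPKM, and 11 of 15 had a lower mean in G85R. None was called, and the median log2 fold change was -0.09. Hspa5 (BiP), the Hsp70 chaperone of the lumen that also holds the sensors inactive (NCBIM37 chr2:34627490-34632051, + strand), was at 187 and 172 RPKM in wild-type and 179.6 and 147 RPKM in G85R. Its mean was 179.7 ± 10.4 RPKM in wild-type (SD, n = 2) and 163 ± 23.1 RPKM in G85R (SD, n = 2), and the G85R libraries lay further apart than the wild-type libraries. The log2 fold change was -0.14 (SE 0.123, 95% interval -0.44 to 0.15, limma adjusted p = 0.756). Without G85R replicate 2 it was 0.00.

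Calr, the lectin chaperone calreticulin of the lumen, had the highest mean of all members and was above 97.5% of tested genes. It was at 240.4 and 200.2 RPKM in wild-type and 242 and 176 RPKM in G85R. Each genotype held 1 high and 1 low library, and the log2 fold change was -0.09 (SE 0.168, limma adjusted p = 0.921). Its sign turned without G85R replicate 2 (0.14) and without wild-type replicate 1 (0.04). Canx, the membrane-bound lectin chaperone calnexin, was at 148 and 138 RPKM in wild-type and 137 and 141 RPKM in G85R, and its genotypes overlapped.

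Sdf2l1, a lumenal factor that works with Hspa5 and its J-domain partners (NCBIM37 chr16:17130231-17132476, − strand), was at 21.8 and 23.5 RPKM in wild-type and 19.4 and 18.2 RPKM in G85R. Both mutant values were below both wild-type values, with means of 22.7 ± 1.22 and 18.8 ± 0.896 RPKM (SD, n = 2 each). The log2 fold change of -0.27 (SE 0.111) was not called by limma (unadjusted p = 0.0472, adjusted p = 0.444).

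The other chaperones and disulfide enzymes are given by library. Hsp90b1 (GRP94), the Hsp90 of the lumen, was at 149.8 and 128 RPKM in wild-type and 137 and 114 RPKM in G85R. Hyou1, a nucleotide exchange factor for Hspa5, was at 33.6, 34.9, 36.2 and 31.3 RPKM in wild-type replicates 1 and 2 and G85R replicates 1 and 2. In both genes the lowest value was that of G85R replicate 2, and the remaining values overlapped.

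Among the protein disulfide isomerases, Pdia4 was at 22.2 and 20.3 RPKM in wild-type and 21.9 and 16.0 RPKM in G85R. Pdia6, which also turns off Ern1 signaling, was at 52.5 and 47.8 RPKM in wild-type and 49.6 and 39.7 RPKM in G85R. Pdia3, which works with calnexin and calreticulin, was at 142 and 117 RPKM in wild-type and 136 and 123 RPKM in G85R. For Pdia4 and Pdia6 the value of G85R replicate 2 was again the lowest, while Pdia3 had its lowest value in wild-type replicate 2.

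P4hb, the best known disulfide isomerase and also a subunit of the collagen prolyl hydroxylase, was higher in both mutant libraries. It was at 79.7 and 80.3 RPKM in wild-type and 86.4 and 88.3 RPKM in G85R, and the genotypes did not overlap (log2 fold change 0.13, limma adjusted p = 0.706). Txndc5, another disulfide isomerase, ranged from 60.5 to 70.6 RPKM and Erp29, a chaperone-like relative without isomerase activity, from 61.0 to 71.7 RPKM, with overlapping genotypes. The oxidases that recharge the isomerases were low, Ero1l at 5.69 to 6.94 RPKM and Ero1lb at 2.45 to 2.96 RPKM. Creld2, a stress-inducible factor with disulfide activity, was at 10.9 and 10.4 RPKM in wild-type and 10.1 and 8.56 RPKM in G85R. Creld2 and Ero1lb had both G85R values below both wild-type values, with limma adjusted p = 0.687 and 0.852.

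Most folding factors were lowest in the same library. G85R replicate 2 held the lowest of the 4 values in 10 of 15 folding factors (66.7%), against 27.0% of all tested genes. They were Hspa5, Hsp90b1, Hyou1, Sdf2l1, Calr, Pdia4, Pdia6, Ero1l, Ero1lb and Creld2, while Canx, Pdia3, P4hb, Txndc5 and Erp29 were lowest in another library. As the median deviation from the wild-type mean on the log2 scale, the 15 genes were at 0.05 and -0.05 in the wild-type libraries, 0.00 in G85R replicate 1 and -0.18 in G85R replicate 2, where all tested genes were at -0.03 in that library. The wild-type values mirror each other because their own mean was subtracted, so distances from 0 cannot be compared directly between genotypes. G85R replicate 1 lay between the wild-type libraries. Summed over the 15 genes, the wild-type libraries held 1225 and 1108 RPKM and the G85R libraries 1198 and 1048 RPKM. Without G85R replicate 2, 7 of 15 had a lower mean in G85R and the median of their log2 fold changes was 0.00. Without wild-type replicate 1 there were 8 with a lower mean, and the median was -0.03. There were 12 without G85R replicate 1 (median -0.18) and 10 without wild-type replicate 2 (median -0.14). Wild-type replicate 1 held the highest of the 4 values in 7 of 15 folding factors (46.7%), against 26.7% of all tested genes.

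**Figure D3:**
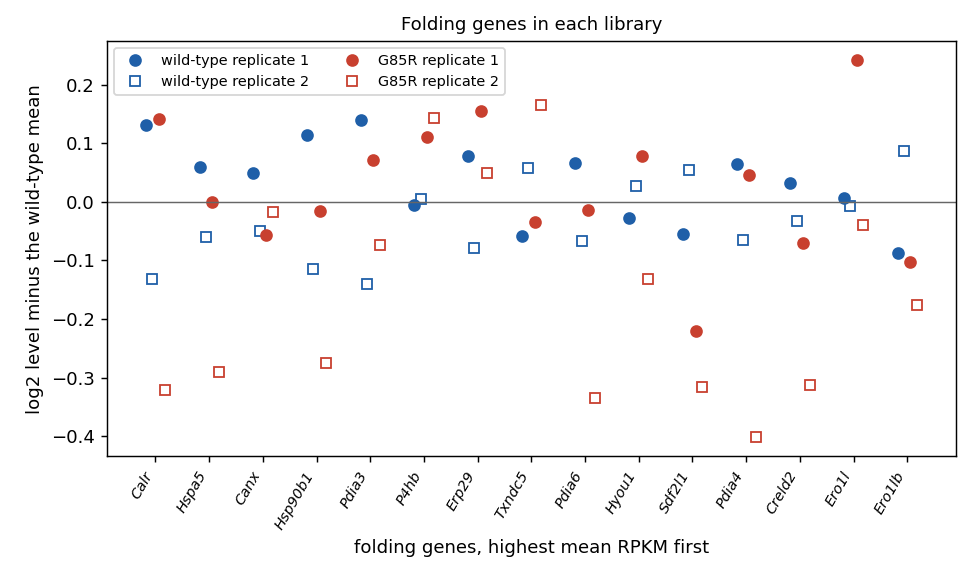
Log2 level of each of the 15 folding factors in each library, as the difference from its wild-type mean, with wild-type in blue, G85R in red, replicate 1 as filled circles and replicate 2 as open squares. In 10 of the 15 genes the open red square of G85R replicate 2 is the lowest of the 4 points. The wild-type points of each gene mirror each other because their own mean was subtracted.

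Read against the promoters shown above, the 9 tested members with an ERSE had a median log2 fold change of -0.14, from -0.19 to 0.37, and 7 of them had a lower mean in G85R. The 18 tested members whose promoter held none had a median of 0.01, from -0.43 to 0.20, and 9 had a lower mean. Of the 9 members with an ERSE, 7 are folding factors, and 6 of these (all but Canx) had their lowest value in G85R replicate 2. Syvn1 and Derl3 are the other two, and both are degradation factors with a higher mean in G85R. These medians are descriptions of a few genes, and no test was made of their difference.

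The degradation factors were even across the libraries. None of the 10 was called or passed an unadjusted p of 0.05, 6 had a higher and 4 a lower mean in G85R, and their log2 fold changes had a median of 0.06, which was 0.0174 to 0.0354 with any 1 library left out. Os9, the lectin that hands misfolded glycoproteins to the ubiquitin ligase, was the most abundant at 68.4 and 64.5 RPKM in wild-type and 76.2 and 63.7 RPKM in G85R. The genotypes overlapped, with a log2 fold change of 0.07 (SE 0.119, limma adjusted p = 0.913) that turned to -0.06 without G85R replicate 1.

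Syvn1 (Hrd1), the ubiquitin ligase itself, was at 27.3 and 35.8 RPKM in wild-type and 31.5 and 34.6 RPKM in G85R. Sel1l, its adaptor, was at 33.1 and 31.5 RPKM in wild-type and 31.5 and 30.8 RPKM in G85R. Herpud1, a membrane protein of the same complex and a strong target of the response, was at 35.7 and 42.8 RPKM in wild-type and 42.2 and 41.9 RPKM in G85R. For Syvn1 and Herpud1 the low library was wild-type replicate 1, and the G85R values lay inside the wild-type range, while the difference in Sel1l was small although its genotypes did not overlap (log2 fold change -0.05).

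The mannosidase-like Edem proteins mark glycoproteins for removal. Edem1 was at 3.09 and 3.23 RPKM in wild-type and 2.84 and 2.90 RPKM in G85R, and Edem3 at 9.81 and 9.60 RPKM in wild-type and 9.86 and 10.4 RPKM in G85R. Edem1 was lower and Edem3 higher in both mutant libraries, with limma adjusted p = 0.842 and 0.926. Edem2 ranged from 15.8 to 18.9 RPKM with overlapping genotypes.

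The derlins belong to the channel through which misfolded proteins leave the lumen. Derl1 was at 29.4 and 25.6 RPKM in wild-type and 25.4 and 25.8 RPKM in G85R, and Derl2 at 5.49 and 5.01 RPKM in wild-type and 5.49 and 4.99 RPKM in G85R. Derl3 was at 1.11 and 0.676 RPKM in wild-type and 0.926 and 1.43 RPKM in G85R, near the filter. All 3 overlapped between genotypes.

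The stress outputs included the largest difference among the 31 members that passed the filter, and the median log2 fold change of the 2 that were tested was -0.25. Chac1, a glutathione-degrading enzyme induced downstream of Atf4 (NCBIM37 chr2:119176965-119180117, + strand), was at 25.6 and 28.6 RPKM in wild-type and 18.7 and 21.6 RPKM in G85R. The means were 27.1 ± 2.16 RPKM in wild-type and 20.1 ± 2.05 RPKM in G85R (SD, n = 2 each), on 802 to 1431 estimated reads, and both mutant libraries were below both wild-type libraries. The log2 fold change was -0.43, 1.35-fold lower in G85R, with a standard error of 0.125 and a 95% interval from -0.73 to -0.13. Chac1 was not called by limma (unadjusted p = 0.0109, adjusted p = 0.266). With the replicate number as a block the adjusted p was 0.0286, and over all limma alternatives it ran from 0.0286 to 0.758, with a log2 fold change from -0.53 to -0.33 when 1 library was left out.

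Ddit3 (CHOP), the pro-apoptotic factor of lasting stress, was at 21.7 and 24.0 RPKM in wild-type and 21.3 and 22.0 RPKM in G85R. The genotypes overlapped, with a log2 fold change of -0.07 (SE 0.111, 95% interval -0.34 to 0.19, limma adjusted p = 0.891). Trib3, a pseudokinase induced by Atf4 and Ddit3, was below the filter at 0.467 and 0.455 RPKM in wild-type and 0.420 and 0.584 RPKM in G85R, on 23 to 34 estimated reads (log2 fold change 0.09 with a minimum of 0.1 RPKM, limma adjusted p = 0.956). Ppp1r15a (GADD34), which recruits the phosphatase that reverses the action of Eif2ak3, was at 12.4 and 10.7 RPKM in wild-type and 11.7 and 10.01 RPKM in G85R (log2 fold change -0.08, SE 0.140, limma adjusted p = 0.904). Ddit3, Trib3 and Ppp1r15a thus showed values in G85R mice that overlapped those of wild-type mice. Chac1 and Trib3, with Herpud1 and Txndc5, were the members with a C/EBP-ATF element in the promoter, and their log2 fold changes, where tested, were -0.43, 0.10 and 0.07 for Chac1, Herpud1 and Txndc5.

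**Figure D4:**
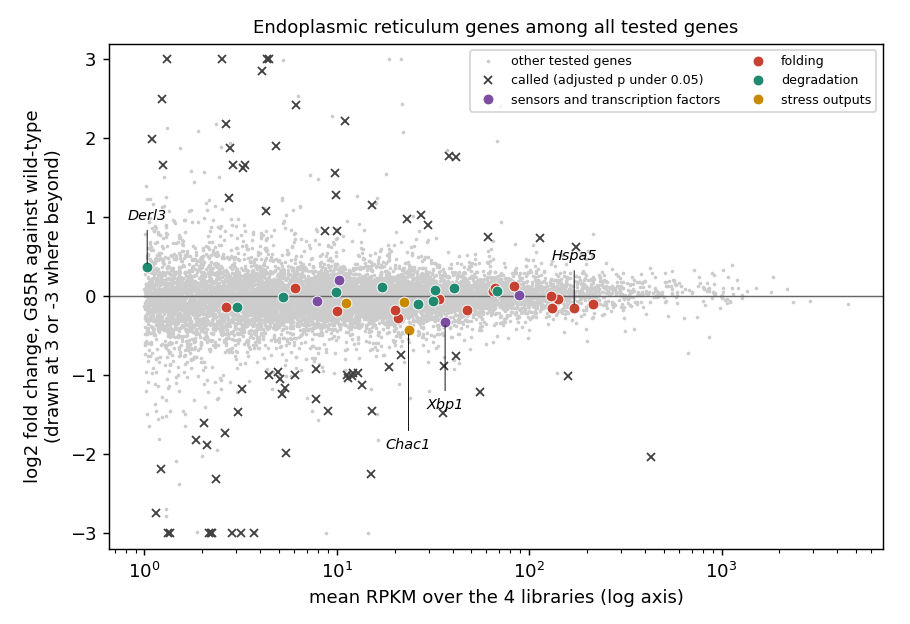
Mean RPKM (log axis) against log2 fold change (G85R minus wild-type, drawn at 3 or -3 where beyond) of all 11530 tested genes, with called genes as crosses, other genes as gray dots, and the 31 tested members and Ppp1r15a colored by role. The members lie within -0.43 to 0.37, and none coincides with a called gene.

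A further 84 genes of the same pathways were examined, and 78 passed the filter (not Sec61g, Pdia2, Pdia5, Creb3l1, Ern2 and Bcl2l11). Each was read at its entry with the highest mean RPKM, and none of these entries was called by limma. At an unadjusted limma p under 0.05 there were 8 with a higher and 5 with a lower mean in G85R. That is 16.7% in all, against 11.0% of all tested genes (4.66% higher and 6.37% lower). The median log2 fold change was 0.01, with 40 higher and 38 lower means. In the log-linear test none was called, against 62 of all 27189 genes. That log-linear test gave an unadjusted p = 0.00125 for Wfs1 and 0.0214 for Ppib, both with a higher mean in G85R. Wfs1 was at 71.4 and 106.3 RPKM in wild-type and 105.9 and 137 RPKM in G85R. Its genotypes overlapped (log2 fold change 0.47, limma adjusted p = 0.472). The smallest limma p belonged to Ppp1r15b, the constitutive partner of the eIF2 alpha phosphatase. It was at 5.70 and 7.55 RPKM in wild-type and 4.34 and 4.49 RPKM in G85R (log2 fold change -0.56, limma adjusted p = 0.285). Both mutant libraries were below both wild-type libraries.

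The next 4 genes by limma p were higher in G85R. Sec61b, a subunit of the translocation channel, was at 5.52 and 4.67 RPKM in wild-type and 7.39 and 6.83 RPKM in G85R (log2 fold change 0.48, limma adjusted p = 0.286). Tmx1, a membrane-bound disulfide isomerase, was at 12.8 and 10.1 RPKM in wild-type and 15.6 and 16.2 RPKM in G85R (log2 fold change 0.48, limma adjusted p = 0.288). Ppib, a prolyl isomerase of the lumen, was at 97.6 and 96.1 RPKM in wild-type and 128 and 114 RPKM in G85R (log2 fold change 0.32, limma adjusted p = 0.317). The genotypes did not overlap in any of these genes, which were picked by their small p. Among the 78 further genes tested they did not overlap in 34 (43.6%), against 41.2% of all tested genes.

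Ube2j2, a ubiquitin-conjugating enzyme of ERAD, was at 3.10 and 3.17 RPKM in wild-type and 4.38 and 4.16 RPKM in G85R (log2 fold change 0.43, limma adjusted p = 0.338). Another entry of the same symbol was at 3.34 and 4.60 RPKM in wild-type and 0.441 and 0.326 RPKM in G85R. It was called as lower (log2 fold change -3.07, limma adjusted p = 0.00475). This entry was the more abundant in both wild-type libraries and had the lower mean over the 4 libraries only through its G85R values. The choice of entry by that mean thus depended on the genotype difference. The entries of this gene thus lay in opposite directions, and the sum over both was not computed.

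Atf3, a stress-induced transcription factor also known as a marker of injured neurons and chosen here after its values were seen, was at 0.675 and 2.12 RPKM in wild-type and 3.05 and 2.85 RPKM in G85R. Its log2 fold change of 1.22 was not called by limma (SE 0.446, adjusted p = 0.389). The value was 1.98 (limma adjusted p = 0.0138) without wild-type replicate 2 and 0.46 (limma adjusted p = 0.524) without wild-type replicate 1.

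RNA of other cell types accompanied the motor neuron RNA in every library, and its part in the values above was not tested. The 6 oligodendrocyte markers summed to 860 and 807 RPKM in wild-type and 1027 and 786 RPKM in G85R, and the 8 microglial markers to 15.1 and 16.6 RPKM in wild-type and 34.8 and 17.7 RPKM in G85R. Both of these sums and that of astrocytes were highest in G85R replicate 1. The oligodendrocyte sum was lowest in G85R replicate 2, as was the summed RPKM of the folding factors. The 5 endothelial markers, at 8.40 and 9.27 RPKM in wild-type and 7.44 and 6.97 RPKM in G85R, were also lowest there. So was the sum of the plasma and B cell markers, at 0.795 and 0.817 RPKM in wild-type and 0.768 and 0.730 RPKM in G85R. The motor neuron sum was lowest in G85R replicate 1. The astrocyte and microglial sums were lowest in wild-type replicate 1. The red blood cell markers Hbb-b1 and Alas2 summed to 1.82 and 2.10 RPKM in wild-type and 11.4 and 10.8 RPKM in G85R. Hbb-b1, read at the more abundant of 2 entries, was the only listed marker called (log2 fold change 2.42, limma adjusted p = 0.00173). Alas2 did not pass the filter. Unadjusted limma p values under 0.05 were also found for Gfap (0.00688), C1qa (0.0361) and C1qc (0.0332), all higher in G85R, and for endothelial Cldn5 (0.0439), which was lower. Of markers of plasma cells and B cells, which are rich in the same secretory genes, Cd79b was at 0 in all 4 libraries and Cd79a in all but G85R replicate 1 (0.0564 RPKM), while Sdc1 was at 0.527 to 0.655 RPKM and Jchain at 0.141 to 0.203 RPKM.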

How the data were processed

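Motor neuron RNA of 2 wild-type SOD1-YFP and 2 G85R SOD1-YFP mice was analyzed. The authors mapped reads with Bowtie 0.12.3 to mm9 (per the submitters' processing notes) and quantified them with Cufflinks, and the deposited values are RPKM for each of 27189 gene clusters. A second deposited RPKM holds 1 read more per gene. The RPKM of 1 read was taken as the difference of both, and reads were estimated by division. Because Cufflinks divides reads between isoforms, no counting interval was computed from them.

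Genes were tested with limma 3.58.1 in R 4.3.3 (eBayes with an intensity trend), without a block, on log2(RPKM + 0.1), which understates differences of low genes. A gene needed a mean RPKM of at least 1, and Benjamini-Hochberg adjustment covered all 11530 such genes. Each library is 1 mouse. The 34 genes, the role groups, the 84 further genes and the markers were chosen with earlier results of these data known. Full statistics are given for members with an unadjusted p under 0.05, the most abundant member of each role, the sensors with Xbp1 and Atf4, Hspa5 and the stress outputs. They are also given for the 5 further genes with the smallest limma p. All members had 1 entry each. Gene positions are from GENCODE on NCBIM37 (the same assembly as mm9), and promoters from RefSeq on GRCm38.p6. Promoters were matched by Entrez gene identifier, or by symbol where no identifier was given. ERSE-II was added after the other motifs. The carboxy-terminal residues of the proteins were not analyzed here. Alternatives were other pseudocounts, filters, scalings and eBayes settings, a replicate block, and leaving out each library. A further alternative was a log-linear likelihood ratio test on the RPKM with 1 read more per gene. Scripts were tested on simulated data. Python 3.11.15, numpy 2.4.6, pandas 2.3.3 and matplotlib 3.10.9 were used.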

Additional observations from a re-analysis of the deposited data

How the results depend on the processing

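The number of members called stayed 0 with pseudocounts of 1 or 0.01, other filters, both rescalings, eBayes without trend or robust, an adjusted p under 0.1, the log-linear test and each library left out, and was 1 (Chac1) with the replicate block. The replicate block also gave 2 further pathway genes, Ddit4 (adjusted p = 0.0166 in limma) and Wfs1 (limma adjusted p = 0.0109), where leaving out 1 library gave 0 to 1. Same-numbered libraries share only a number in the labels, and their replicate differences correlated at r = 0.22 across 11530 genes, which are not independent. Calls over all genes, 74 here, were 49 without trend, 17 with a minimum of 5 RPKM, 112 with no filter, 39 after quantile normalization, 527 with the replicate block and 142 at an adjusted p under 0.1, and 78 to 188 with 1 library left out (188 without G85R replicate 2); the causes were not tested.

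With 1 library left out, where the lone library of a genotype is assumed to vary like the others, the median log2 fold change ran from -0.0747 to 0.0401 for sensors and transcription factors and from 0.0174 to 0.0354 for degradation factors. For stress outputs, at -0.25 here and -0.33 to -0.18 with 1 library left out, it was -0.0748 with a minimum of 0.1 RPKM or no filter, which add Trib3, and -0.0841 with Ppp1r15a, an alternative chosen after seeing the data. Signs turned for Atf4 (-0.00258 after quantile normalization, -0.0555 to 0.0986 with 1 library left out), Hspa5 (-0.29 to 0.000167), Calr (-0.32 to 0.14) and Os9 (-0.0605 to 0.20). Rescaling by the median ratio left 17 members with a lower mean, against 19. Depth limits Ern1, Trib3 and Derl3, each under 100 estimated reads in every library.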
